A study of Mus musculus with 2 samples.

Results

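The genes of the cell cycle and DNA replication described here are 40 genes that carry cells through G1, copy DNA in S phase or divide chromosomes in mitosis. They were taken by symbol from the 26440 genes of the deposited tables, and each was represented by 1 RefSeq accession. By role, 7 belong to G1 and entry into S phase, 15 to S phase and 18 to G2 and mitosis. The tables hold 1 library of liver labelled SRSF2-/- (the knockout library) and 1 of WT liver, both from BALB/c mice on day 11 after birth. SRSF2 is a serine/arginine-rich splicing factor, and its deletion is described as liver specific. The sources used here do not give the driver of the deletion, the cells it reached or the number of animals behind each library.

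Cells enter the cycle when D-type cyclins with Cdk4 and E-type cyclins with Cdk2 inactivate the retinoblastoma protein and free E2F transcription factors. E2F then drives genes that license replication origins, unwind DNA and supply nucleotides. Later, the MuvB complex with B-Myb and FOXM1 drives the mitotic genes, whose promoters often share a CHR element and CCAAT boxes. In rodent liver, hepatocytes still divide in the weeks after birth and then become quiescent. The young liver also keeps dividing blood precursors.

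Each genotype had a single library, which leaves no replicate and no test between animals, so each value describes these 2 libraries. Levels are FPKM, reads normalised by the authors for transcript length and library size. The knockout library had 22111605 reads and the WT library 22407743 reads, of which the 20 most abundant genes took 21.5% in the knockout and 37.5% in the WT library. Ratios are knockout over WT FPKM, with 95% intervals (exact, Clopper-Pearson) from the reads that cover counting error only. The size of a difference was also taken as log2((knockout FPKM + 1) / (WT FPKM + 1)), which understates differences of low genes. A gene counted as past 2-fold when that value was at least 1 or at most -1, among the 12477 genes with 1 FPKM or more in either library.

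The libraries differed in more than the targeted gene. Srsf2 stood at 11.8 FPKM in the knockout library and 27.9 FPKM in the WT library, a ratio of 0.421 (0.388 to 0.457). Xist, which coats and silences an X chromosome in females, stood at 0.0138 FPKM in the knockout and 27.4 FPKM in the WT library. The summed level of 10 exocrine pancreas markers was 696 FPKM in the knockout and 3.44 FPKM in the WT library. For 9 skeletal muscle markers it was 75.0 FPKM in the knockout and 0.261 FPKM in the WT library. In the WT library, Cel and Pnlip of the pancreas and Acta1, Myh1, Myh4 and Myh8 of muscle were at 0 reads. The part of these differences in the results was not tested. The hepatocyte markers were abundant in both libraries, with Alb at 25492 FPKM in the knockout and 50399 FPKM in the WT library. The median log2 ratio of all tested genes was 0.55 on the scale above, so values are also given relative to it.

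Transcripts of the cell cycle genes lay between 1.57-fold lower and 2.26-fold higher in the knockout than in the WT library, and most of them below the typical gene of the same libraries. None of the 39 members with 1 FPKM or more in a library was past 2-fold in either direction, where 22.2% of all tested genes were. Their median log2 ratio was 0.19 as deposited and -0.36 relative to all genes, with a range from -0.53 to 0.87. As deposited, 31 of 39 members were higher in the knockout library, against 84.5% of all tested genes, but 7 of 39 were with edgeR TMM or DESeq2 size factors, 19 of 39 after rescaling without the 20 most abundant genes, and 33 of 40 as TPM. The deposited direction of many members therefore depends on the scaling. The share of all genes above 0 was not taken under the other scalings. Their median of all genes was -0.04 with edgeR TMM, -0.05 with DESeq2 size factors, 0.35 without the 20 most abundant genes and 0.63 as TPM. These scalings multiply a whole library by 1 factor, so the place of a member relative to all genes is nearly fixed by construction. Relative to the median of all genes, 31 of 39 lay below it, against 50% of all tested genes. After centring on that median, 0 members were past 2-fold higher and 2 past 2-fold lower, Tk1 and Aurkb, where the shares of all genes were 5.67% and 6.66%. A place below the median of all genes does not by itself show a fall in the RNA of the members. In bulk liver, the number of cycling cells and the RNA per cycling cell cannot be told apart.

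The members were detected in both libraries at modest levels. Together they held 21443 reads, or 0.0970% of the total, in the knockout library and 17039 reads, or 0.0760%, in the WT library. The median level of the 39 was 5.43 FPKM in the knockout and 4.62 FPKM in the WT library, against 6.74 FPKM in the knockout and 4.104 FPKM in the WT library over all tested genes. Cdk4, Pcna and Ccnd1 were the 3 highest members in both libraries, in that order. Cdc6, the ATPase that loads the replicative helicase onto origins, was below the filter at 0.621 FPKM in the knockout and 0.524 FPKM in the WT library.

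**Figure D1:**
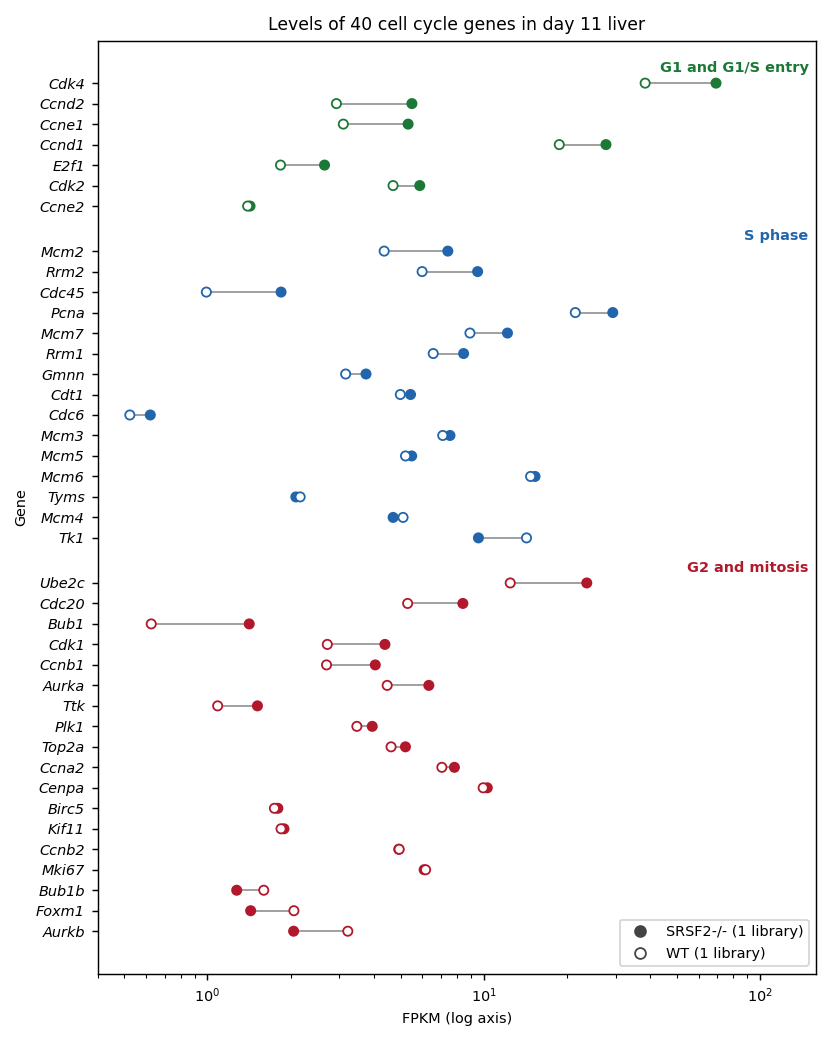
FPKM of the 40 genes on a log axis, with filled points for the SRSF2-/- library, open points for the WT library and a line joining each pair, grouped by phase and sorted by log2 ratio within a phase. The points lie close together for most S phase and mitotic genes, while Cdk4 stands at 69.3 FPKM in the knockout and 38.4 FPKM in the WT library.

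Promoters of the S phase and the mitotic genes differed in the letters they hold. RefSeq windows of 300 bases around the gene start (assembly GRCm38.p6) were found for 32 members. Ccnd1, Ccnd2, Ccne2, Gmnn, Mcm4, Foxm1, Ccna2 and Aurkb were not among them. Searched on both strands were the E2F letters TTTCGCGC or TTTGGCGC, the CHR letters TTTGAA and the CCAAT box CCAAT. Members were counted by gene and the background by window, so their shares are in different units. The E2F letters occurred in 5 of 13 S phase genes, 1 of 15 mitotic genes and 0 of 4 G1 genes, and in 0.813% of all 32851 windows. The CHR letters occurred in 12 of 15 mitotic genes, 2 of 13 S phase genes and 0 of 4 G1 genes, and in 17.9% of all windows. CCAAT occurred in 14 of 15 mitotic genes, 9 of 13 S phase genes and 1 of 4 G1 genes, and in 37.4% of all windows. All 12 mitotic windows with CHR letters also held CCAAT, a combination found in 6.95% of all windows. A match of letters is a description of the window and not a measured binding site. No other letters were searched for E2F, so a window without a match is not shown to lack an E2F site.

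Promoter windows of 5 genes show these layouts, 5′ to 3′ on the gene's own strand, with matches to any of the searched letters in capitals. Mcm5 (chr8:75109259-75109558, plus strand) and Mcm6 (chr1:128359656-128359955, minus strand) encode helicase subunits with near-equal levels in both libraries and hold E2F letters and CCAAT boxes. Cdk1 (chr10:69352863-69353162, minus strand) holds all 3 kinds of letters. Ccnb2 (chr9:70421505-70421804, minus strand) and Ube2c (chr2:164769679-164769978, plus strand) hold CHR letters and CCAAT boxes without E2F letters, although Ccnb2 was equal between the libraries and Ube2c had the highest log2 ratio of the members. No match of one kind overlapped a match of another kind in these 5 windows.
Mcm5: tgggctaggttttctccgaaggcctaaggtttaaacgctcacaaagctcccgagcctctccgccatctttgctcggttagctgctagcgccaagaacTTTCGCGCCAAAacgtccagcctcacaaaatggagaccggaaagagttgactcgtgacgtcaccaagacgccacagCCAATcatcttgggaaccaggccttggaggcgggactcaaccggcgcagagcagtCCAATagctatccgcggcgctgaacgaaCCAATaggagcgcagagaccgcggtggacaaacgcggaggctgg
Mcm6: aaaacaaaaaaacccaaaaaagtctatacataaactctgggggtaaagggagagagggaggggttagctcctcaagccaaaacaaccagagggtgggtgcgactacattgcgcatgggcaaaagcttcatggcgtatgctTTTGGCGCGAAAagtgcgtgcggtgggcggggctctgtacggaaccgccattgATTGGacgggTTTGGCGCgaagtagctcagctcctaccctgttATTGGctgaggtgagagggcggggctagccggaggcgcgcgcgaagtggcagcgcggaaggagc
Cdk1: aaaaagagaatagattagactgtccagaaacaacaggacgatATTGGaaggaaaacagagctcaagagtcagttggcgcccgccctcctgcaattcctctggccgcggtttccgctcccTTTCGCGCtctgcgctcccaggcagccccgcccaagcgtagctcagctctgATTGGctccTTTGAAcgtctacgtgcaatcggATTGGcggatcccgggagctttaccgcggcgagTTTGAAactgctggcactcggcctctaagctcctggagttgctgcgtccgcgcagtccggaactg
Ccnb2: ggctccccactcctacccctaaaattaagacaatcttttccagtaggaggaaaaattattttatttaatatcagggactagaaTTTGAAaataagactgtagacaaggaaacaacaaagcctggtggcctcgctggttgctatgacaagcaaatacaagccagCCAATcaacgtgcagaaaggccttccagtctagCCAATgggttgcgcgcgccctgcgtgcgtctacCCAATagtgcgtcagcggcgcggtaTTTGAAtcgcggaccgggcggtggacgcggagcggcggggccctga
Ube2c: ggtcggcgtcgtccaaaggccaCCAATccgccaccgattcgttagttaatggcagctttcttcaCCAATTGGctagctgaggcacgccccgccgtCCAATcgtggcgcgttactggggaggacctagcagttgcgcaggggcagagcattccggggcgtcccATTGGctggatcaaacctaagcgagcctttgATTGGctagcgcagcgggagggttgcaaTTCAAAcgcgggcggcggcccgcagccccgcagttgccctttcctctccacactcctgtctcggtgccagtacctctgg

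Genes of G1 and entry into S phase lay on both sides of the median of all genes. The 7 genes had a median log2 value of 0.54 as deposited and -0.13 with TMM, and relative to all genes it was -0.02. All 7 values were above 0 as deposited, and 3 of 7 were above the median of all genes. By their counting intervals, 2 lay above the ratio of the median gene and 3 below it. Their summed level was 117.8 FPKM in the knockout and 71.1 FPKM in the WT library, a ratio of 1.66.

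Of the D-type cyclins and their kinase, Cdk4 and Ccnd2 had the highest log2 values of this class, while Ccnd1 held its median of 0.54. Cdk4, the kinase that D-type cyclins activate, had 2447 reads in the knockout and 1372 in the WT library, or 69.3 FPKM in the knockout and 38.4 FPKM in the WT library. That is a ratio of 1.805 (1.69 to 1.93) and the highest level among the members. Ccnd2, cyclin D2, had 903 reads (5.50 FPKM) in the knockout and 487 reads (2.93 FPKM) in the WT library, a ratio of 1.88 (1.68 to 2.10). Ccnd1, cyclin D1, which is the D-type cyclin best known from hepatocyte growth after partial hepatectomy, stood at 27.7 FPKM in the knockout and 18.8 FPKM in the WT library, a ratio of 1.48 (1.39 to 1.57). The plain ratio of the median gene was 1.62, so the intervals of Cdk4 and Ccnd2 lay above it and that of Ccnd1 below it.

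The E-type cyclins differed from each other. Ccne1, cyclin E1, stood at 5.32 FPKM in the knockout and 3.10 FPKM in the WT library, a ratio of 1.72 (1.41 to 2.10). Ccne2, cyclin E2, had 123 reads (1.43 FPKM) in the knockout and 122 reads (1.40 FPKM) in the WT library, a ratio of 1.02 (0.788 to 1.32). The counting intervals of these partners of the same kinase did not overlap. Cdk2, that kinase, had 374 reads (5.87 FPKM) in the knockout and 303 reads (4.70 FPKM) in the WT library, a ratio of 1.25 (1.07 to 1.46). E2f1, an activating E2F factor, stood at 2.65 FPKM in the knockout and 1.84 FPKM in the WT library, a ratio of 1.44 (1.14 to 1.83).

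Genes of DNA replication stood nearer to equal FPKM. Over 14 tested of 15 S phase genes the median log2 value was 0.15 as deposited and -0.44 with TMM, and relative to all genes it was -0.41. Of these, 11 were above 0 as deposited and 12 lay below the median of all genes. Their summed level was 123.2 FPKM in the knockout and 105.6 FPKM in the WT library, a ratio of 1.17. For 7 of 14 the counting interval held a ratio of 1, which was so for 11.9% of all tested genes with reads in both libraries.

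The 6 subunits of the MCM helicase, the ring that unwinds DNA at the fork, did not share a ratio. Mcm3 stood at 7.55 FPKM in the knockout and 7.11 FPKM in the WT library (ratio 1.06, 0.943 to 1.197). Mcm4 had 442 reads (4.70 FPKM) in the knockout and 486 reads (5.10 FPKM) in the WT library, a ratio of 0.920 (0.807 to 1.05). Mcm5 stood at 5.48 FPKM in the knockout and 5.21 FPKM in the WT library, with a ratio of 1.05 (0.926 to 1.197). These 3 intervals all held equal FPKM, and so did that of Mcm6, at 15.3 FPKM in the knockout and 14.8 FPKM in the WT library (ratio 1.04, 0.956 to 1.13). Mcm2 had 655 reads (7.41 FPKM) in the knockout and 390 reads (4.36 FPKM) in the WT library, a ratio of 1.70 (1.497 to 1.93). Its interval lay above those of Mcm3, Mcm4, Mcm5 and Mcm6. Mcm7 stood between them, at 12.2 FPKM in the knockout and 8.91 FPKM in the WT library (ratio 1.37, 1.23 to 1.52).

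Factors that load or activate the helicase mostly had counting intervals that held equal FPKM. Cdt1, which brings the helicase to origins, stood at 5.43 FPKM in the knockout and 4.99 FPKM in the WT library (ratio 1.09, 0.925 to 1.28). Gmnn, geminin, which binds Cdt1 to block a further round of licensing, stood at 3.75 FPKM in the knockout and 3.16 FPKM in the WT library (ratio 1.18, 0.873 to 1.61). Cdc6 had 75 reads in the knockout and 64 in the WT library (ratio 1.19, 0.838 to 1.68). At these depths the intervals of all 3 held equal FPKM. That of Cdc6 also held the ratio of the median gene, 1.62, so it cannot tell these apart. Cdc45, part of the active helicase at the fork, was higher at 1.85 FPKM in the knockout and 0.991 FPKM in the WT library, with 105 reads in the knockout and 57 in the WT library (ratio 1.86, 1.34 to 2.62).

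The sliding clamp and nucleotide supply genes lay on both sides. Pcna, the clamp that holds polymerases on DNA, had 968 reads (29.3 FPKM) in the knockout and 717 reads (21.5 FPKM) in the WT library, a ratio of 1.37 (1.24 to 1.51). Rrm1 and Rrm2 encode the large and small subunits of ribonucleotide reductase, which makes deoxyribonucleotides. Rrm1 stood at 8.46 FPKM in the knockout and 6.56 FPKM in the WT library (ratio 1.29, 1.17 to 1.42), and Rrm2 had 543 reads (9.50 FPKM) in the knockout and 346 reads (5.98 FPKM) in the WT library (ratio 1.59, 1.39 to 1.82). Tyms, the thymidylate synthase gene, stood at 2.09 FPKM in the knockout and 2.17 FPKM in the WT library (ratio 0.965, 0.795 to 1.17). Tk1, thymidine kinase of the salvage route, was the lowest member on the log2 scale. It had 391 reads (9.57 FPKM) in the knockout and 590 reads (14.3 FPKM) in the WT library, 1.49-fold lower (1.31 to 1.70). Its log2 value was -0.53 as deposited and -1.09 against the median of all genes.

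Mitotic genes were also near equal FPKM, with the widest spread among the 3 classes. The 18 genes had a median log2 value of 0.14 as deposited, -0.44 with TMM and -0.42 against all genes, and ranged from -0.47 to 0.87. As deposited, 13 were above 0, and 15 lay below the median of all genes. Their summed level was 96.4 FPKM in the knockout and 76.0 FPKM in the WT library, a ratio of 1.27.

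Mki67 and Top2a, common markers of proliferation, had deposited ratios close to 1. Mki67, the source of the Ki-67 antigen, had 1607 reads (6.08 FPKM) in the knockout and 1646 reads (6.16 FPKM) in the WT library, a ratio of 0.988 (0.922 to 1.06). Top2a, the topoisomerase that untangles chromosomes, stood at 5.21 FPKM in the knockout and 4.62 FPKM in the WT library (ratio 1.13, 1.01 to 1.26). Mki67 had the most reads of the mitotic genes and the narrowest interval. Relative to all genes the log2 values were -0.57 for Mki67 and -0.41 for Top2a, and both intervals lay below the ratio of the median gene.

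Cyclin genes of the mitotic kinase did not share a ratio. Ccna2, cyclin A2, stood at 7.83 FPKM in the knockout and 7.05 FPKM in the WT library (ratio 1.11, 0.985 to 1.25). Ccnb1, cyclin B1, stood at 4.05 FPKM in the knockout and 2.70 FPKM in the WT library (ratio 1.501, 1.23 to 1.84). Ccnb2, cyclin B2, stood at 4.93 FPKM in the knockout and 4.94 FPKM in the WT library (ratio 0.997, 0.816 to 1.22). The interval of Ccnb1 lay above that of Ccnb2. Cdk1, the kinase they activate, stood at 4.39 FPKM in the knockout and 2.72 FPKM in the WT library (ratio 1.62, 1.35 to 1.93). Plk1, a kinase of mitotic entry and spindle assembly, stood at 3.95 FPKM in the knockout and 3.47 FPKM in the WT library (ratio 1.14, 0.937 to 1.38). Foxm1, the transcription factor that drives many of these genes, had 164 reads (1.43 FPKM) in the knockout and 238 reads (2.06 FPKM) in the WT library. It was 1.43-fold lower (1.17 to 1.76), with a log2 ratio of -0.33.

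Chromosomal kinases and their partners differed in ratio. Aurka, the Aurora kinase of centrosomes and spindle poles, stood at 6.33 FPKM in the knockout and 4.47 FPKM in the WT library (ratio 1.41, 1.19 to 1.69). Its log2 value was 0.42 as deposited, but -0.19 with TMM and -0.13 relative to all genes. Aurkb, the Aurora kinase of the chromosomal passenger complex, had 117 reads (2.05 FPKM) in the knockout and 186 reads (3.22 FPKM) in the WT library, 1.57-fold lower (1.24 to 1.997). Its log2 ratio was -0.47, the lowest of the mitotic class, and -1.02 relative to all genes. Birc5, survivin of the same complex, stood at 1.798 FPKM in the knockout and 1.75 FPKM in the WT library (ratio 1.03, 0.823 to 1.29). Cenpa, the centromeric histone variant, stood at 10.3 FPKM in the knockout and 9.95 FPKM in the WT library (ratio 1.03, 0.891 to 1.202). Kif11, the motor that separates spindle poles, stood at 1.89 FPKM in the knockout and 1.85 FPKM in the WT library (ratio 1.02, 0.853 to 1.23).

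Spindle checkpoint kinases also differed in ratio. Bub1 had 161 reads (1.42 FPKM) in the knockout and 72 reads (0.626 FPKM) in the WT library, a ratio of 2.26 (1.70 to 3.03). That was the highest plain ratio of the members, though its log2 value with the pseudocount was 0.57. Without the pseudocount it was the single member past 2-fold higher, and 0 were lower, where 31.7% of all genes were at least 2-fold higher and 3.73% lower. Bub1b, BubR1 of the checkpoint complex, stood at 1.28 FPKM in the knockout and 1.60 FPKM in the WT library (ratio 0.798, 0.625 to 1.02), an interval that held equal FPKM. Ttk, the Mps1 kinase that starts checkpoint signalling, stood at 1.52 FPKM in the knockout and 1.09 FPKM in the WT library (ratio 1.39, 1.04 to 1.86).

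Genes of anaphase entry and mitotic exit were at the upper end. Ube2c, the ubiquitin-conjugating enzyme of the anaphase-promoting complex, had 576 reads (23.6 FPKM) in the knockout and 308 reads (12.5 FPKM) in the WT library, a ratio of 1.89 (1.65 to 2.18). Its log2 ratio of 0.87 was the highest of the members and lay 0.32 above the median of all genes. Cdc20, the activator of that complex, had 393 reads (8.40 FPKM) in the knockout and 251 reads (5.30 FPKM) in the WT library, a ratio of 1.58 (1.35 to 1.86). Ube2c was also the most abundant mitotic gene in both libraries.

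**Figure D2:**
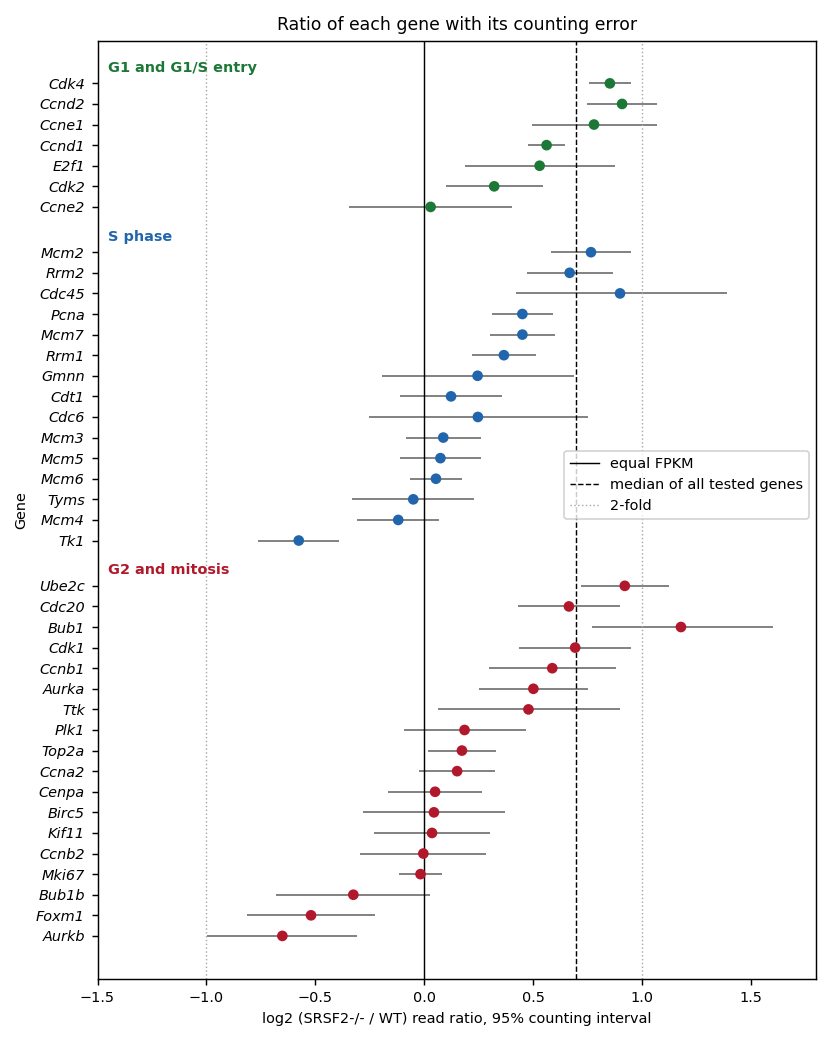
Plain read ratio of each gene on a log2 axis, scaled as FPKM, with its exact 95% counting interval, grouped by phase. The solid line is equal FPKM, the dashed line the median of all tested genes and the dotted lines 2-fold; Tk1, Foxm1 and Aurkb lie below equal FPKM, and Bub1 is the gene past 2-fold.

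The counting intervals were compared with the ratio of the median gene. Intervals of 25 of 39 members lay below the median ratio of all genes and those of 4 above it, namely Cdk4, Ccnd2, Bub1 and Ube2c. Over all tested genes with reads in both libraries these shares were 36.8% and 36%. The other 10 intervals held that median. Against equal FPKM, 20 intervals lay above a ratio of 1, where 76.9% of all genes did, and 3 lay below it, those of Tk1, Foxm1 and Aurkb, where 11.2% did. The intervals do not hold the spread between animals, which these libraries cannot give.

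Between the classes, the median log2 ratio of the G1 genes was 0.39 above that of the S phase genes and 0.40 above that of the mitotic genes. S phase and mitotic genes differed by 0.01. The G1 range overlapped those of the other classes, since Ccne2 at 0.02 lay below 11 of the 14 S phase genes, and Ube2c at 0.87 lay above all 7 G1 genes. The class of 7 genes is small, and the gap depends on which genes it holds. With Cdc6, Cdt1 and Gmnn counted in G1 it was 0.16 to the S phase genes and 0.23 to the mitotic genes. Genes at the same level as the members, between 1.02 and 53.8 FPKM on average, had a median of 0.56 over 10804 genes, close to that of all genes.

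**Figure D3:**
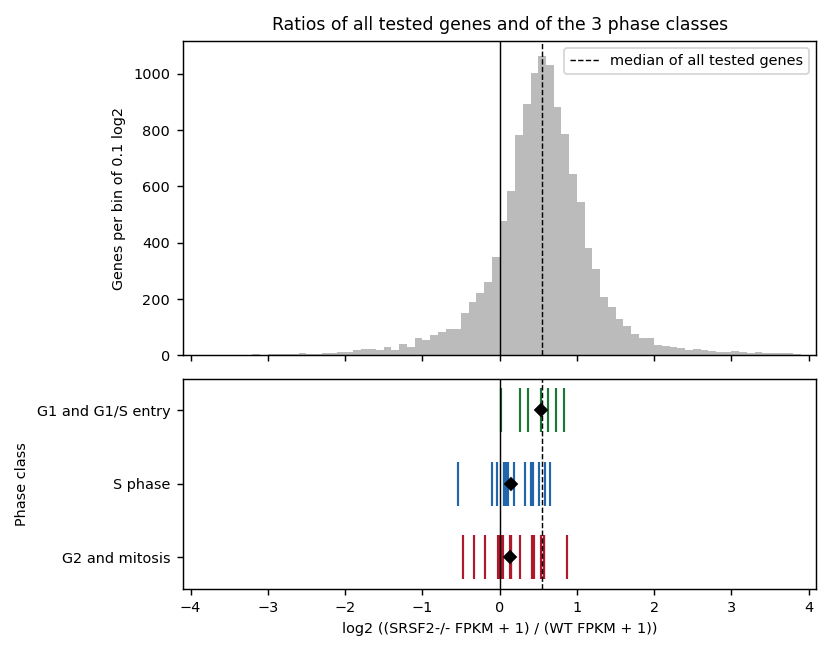
Histogram of log2((SRSF2-/- FPKM + 1) / (WT FPKM + 1)) over tested genes between -4 and 4 (46 lie outside) above the values of the 3 phase classes, with 1 tick a gene and a diamond at the class median. The G1 median of 0.54 lies at the dashed median of all genes, and the S phase and mitotic medians of 0.15 and 0.14 lie between it and 0.

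Promoter letters were set beside the ratios as a description. The 5 S phase genes with E2F letters, Cdt1, Mcm3, Mcm5, Mcm6 and Mcm7, had a median log2 ratio of 0.08, and the other 8 with a window, Cdc6 included, had 0.38. The 12 mitotic genes with CHR letters had a median of 0.14, and Ccnb1, Birc5 and Bub1, which lacked them, had a median of 0.45. The 2 S phase windows with CHR letters were those of Mcm2 at 0.65 and Cdc45 at 0.52. On this scale Rrm2, without CHR letters, lay between them at 0.59. By plain ratio Cdc45 at 1.86 and Mcm2 at 1.70 were the highest of that class, above Rrm2 at 1.59. The counting interval of Cdc45, 1.34 to 2.62, held that ratio of Rrm2. Within the mitotic CHR group the values ran from Bub1b at -0.19 to Ube2c at 0.87.

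Other genes of the cycle were examined in 5 further lists. Of 180 genes listed, 176 were matched and 136 passed the filter. Their median log2 value was 0.32 as deposited and -0.24 against all genes, and 100 of the 136 lay below the median of all genes while 36 lay above it. As deposited, 8 were past 2-fold higher and 2 past 2-fold lower, where 19.2% and 2.95% of all genes were. After centring, 1 was higher and 6 were lower. The lists hold genes known for other roles as well, and reads shared with near-identical copies, as for tubulin and histone genes, may be divided in an unknown way.

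The CDK inhibitors, which hold cyclin-dependent kinases in check, held the largest difference of the pathway on the log2(FPKM + 1) scale. Cdkn1a, which encodes p21, a p53 target, had 4403 reads (86.8 FPKM) in the knockout and 377 reads (7.34 FPKM) in the WT library. It was 11.8-fold higher (10.6 to 13.2), with a log2 value of 3.40, which lay 2.84 above the median of all genes. Cdkn1c, the imprinted gene of p57, went the other way at 9.45 FPKM in the knockout and 21.3 FPKM in the WT library, 2.26-fold lower (2.04 to 2.51). Over the 7 tested inhibitors the median log2 ratio was 0.23, with 1 gene higher and 1 lower than 2-fold. Without the pseudocount, 3 were past 2-fold higher and 1 past 2-fold lower. Among the rest, chosen after their values were seen, Cdkn1b (p27) stood at 11.3 FPKM in the knockout and 5.199 FPKM in the WT library. It was just under 2-fold on the log2 scale with the pseudocount, but its plain ratio was 2.17 (1.98 to 2.39). Cdkn2b (p15) had 39 reads in the knockout and 2 in the WT library, a ratio of 19.7 with a wide interval (5.11 to 169). Cdkn2a, the locus of p16 and p19ARF, had 1 read in the knockout and 3 in the WT library, too few to compare.

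Other G1 regulators had a median log2 value of 0.53 over 24 tested genes, which was -0.02 against all genes. Mybl1, A-Myb, which is best known from germ cells, was the gene past 2-fold, with 203 reads (1.51 FPKM) in the knockout and 10 reads (0.0737 FPKM) in the WT library (ratio 20.5, 10.9 to 43.5). The most abundant was Ccnd3, cyclin D3, at 27.5 FPKM in the knockout and 20.7 FPKM in the WT library (ratio 1.33, 1.23 to 1.43). Rb1, the retinoblastoma gene, named after its value was seen, stood at 3.71 FPKM in the knockout and 1.46 FPKM in the WT library (ratio 2.54, 2.13 to 3.04).

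Other replication genes had a median of 0.28 over 42 tested genes, or -0.27 relative to all genes, and 31 of them lay below the median of all genes. Rnaseh2a, a subunit of the nuclease that removes ribonucleotides from DNA, was past 2-fold at 11.0 FPKM in the knockout and 4.87 FPKM in the WT library (ratio 2.27, 1.96 to 2.63). Shmt1, the most abundant, which makes one-carbon units in many tissues, stood at 33.2 FPKM in the knockout and 48.6 FPKM in the WT library, 1.47-fold lower (1.39 to 1.55).

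Other mitotic genes had a median of 0.25 over 44 tested of 67 matched genes, or -0.30 relative to all genes, and 38 lay below the median of all genes. Past 2-fold higher were Wee1, Bub3 and Tubb5. Wee1, the kinase that restrains Cdk1, stood at 8.71 FPKM in the knockout and 2.66 FPKM in the WT library (ratio 3.27, 2.84 to 3.78). Bub3, a checkpoint protein present through the cycle, stood at 28.8 FPKM in the knockout and 12.3 FPKM in the WT library (ratio 2.34, 2.14 to 2.57). Tubb5, a widely expressed beta-tubulin and the most abundant of the list on average, stood at 123.2 FPKM in the knockout and 44.5 FPKM in the WT library (ratio 2.77, 2.65 to 2.88). Cenpm, a centromere protein, was past 2-fold lower at 6.45 FPKM in the knockout and 14.7 FPKM in the WT library, 2.28-fold lower (1.93 to 2.70). The 23 genes below the filter are not in these counts.

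Checkpoint and S phase repair genes had a median of 0.38 over 19 tested of 28 genes, or -0.17 relative to all genes. Rad9a, of the clamp that signals damaged DNA, was past 2-fold at 19.7 FPKM in the knockout and 9.32 FPKM in the WT library (ratio 2.12, 1.90 to 2.36). Rad17, which loads that clamp, was past 2-fold at 7.39 FPKM in the knockout and 3.18 FPKM in the WT library (ratio 2.32, 1.997 to 2.71). H2afx, the histone variant phosphorylated at DNA breaks and the most abundant of the list on average, stood at 15.8 FPKM in the knockout and 13.8 FPKM in the WT library (ratio 1.14, 1.01 to 1.29). No tested gene of the list was past 2-fold lower.

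**Figure D4:**
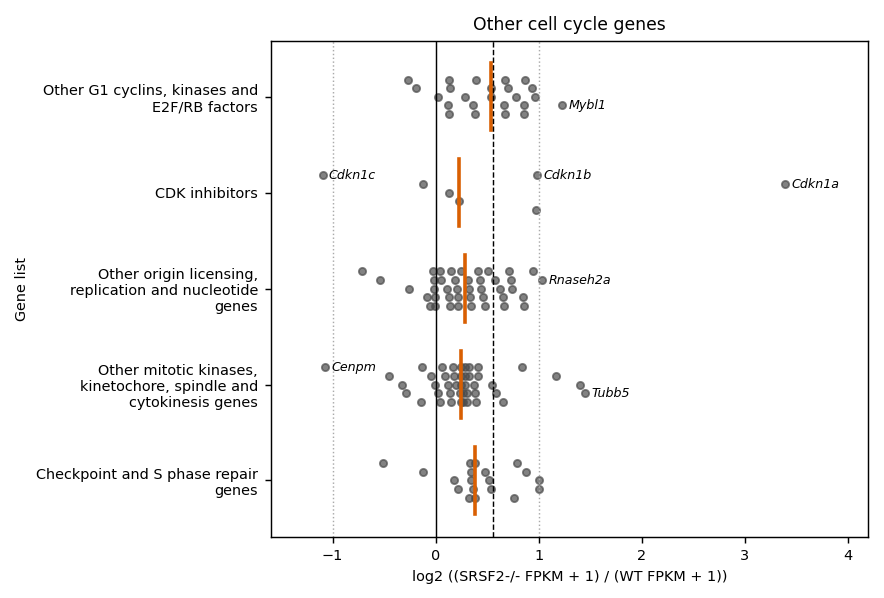
log2((SRSF2-/- FPKM + 1) / (WT FPKM + 1)) of the tested genes of 5 further cell cycle lists, 1 point a gene, with the list median as an orange bar, the median of all genes as a dashed line and 2-fold as dotted lines. Cdkn1a stands apart at 3.40, and the replication and mitotic lists lie mostly between 0 and the dashed line.

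Markers of cell types that can divide in young liver differed as well. Granulocyte precursors were represented by 10 markers, of which 8 of 9 tested were lower in the knockout library and 4 of 9 past 2-fold lower, where 2.95% of all tested genes were past 2-fold lower and 84.5% were higher. Prtn3, proteinase 3 of early granulocytes, stood at 1.53 FPKM in the knockout and 24.2 FPKM in the WT library, 15.8-fold lower (11.4 to 22.4). Lcn2, which hepatocytes also make, was the exception at 896 FPKM in the knockout and 345 FPKM in the WT library. Without it the summed level of that list was 113.6 FPKM in the knockout and 243.0 FPKM in the WT library. Erythroid markers had a summed level of 33.1 FPKM in the knockout and 40.9 FPKM in the WT library. Tfrc alone made up 17.9 FPKM of that sum in the knockout and 22.2 FPKM in the WT library. Hbb-b1 and Hbb-b2, adult beta globins, were listed at 0 reads in both, for a reason that was not tested. These sums therefore cannot be read as the share of erythroid cells. Of 5 tested erythroid markers 0 were past 2-fold as deposited, and 1 was past 2-fold lower after centring. Alas2, the heme synthesis enzyme of red cell precursors, stood at 6.59 FPKM in the knockout and 12.2 FPKM in the WT library, 1.84-fold lower (1.61 to 2.11). Of 8 hepatocyte markers 7 were lower, 3 of them past 2-fold, and Tat, an enzyme of tyrosine breakdown, was 3.15-fold higher at 386 FPKM in the knockout and 122.4 FPKM in the WT library. Hepatocyte markers summed to 45460 FPKM in the knockout and 94857 FPKM in the WT library.

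Markers of several other liver cell types were higher in the knockout library as deposited. Of all tested genes 84.5% were above 0 and 19.2% past 2-fold higher. Kupffer cell and macrophage markers had 8 of 8 tested genes higher and 4 past 2-fold (1 after centring), with a summed level of 802 FPKM in the knockout and 323 FPKM in the WT library. Stellate cell and matrix markers had 8 of 8 higher and 4 past 2-fold (1 after centring), with Lrat and Reln below the median of all genes, and a summed level of 452 FPKM in the knockout and 175 FPKM in the WT library. Bile duct markers had 6 of 6 higher and 4 past 2-fold (2 after centring), with 102.5 FPKM in the knockout and 34.0 FPKM in the WT library. Endothelial markers had a median log2 ratio of 0.35, with 0 of 7 past 2-fold, and B and T lymphocyte markers had -0.27 over 5 tested, with 0 past 2-fold. Megakaryocyte markers had 1 of 3 tested past 2-fold. The part of these cell types in the levels of the cell cycle genes was not tested.

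**Figure D5:**
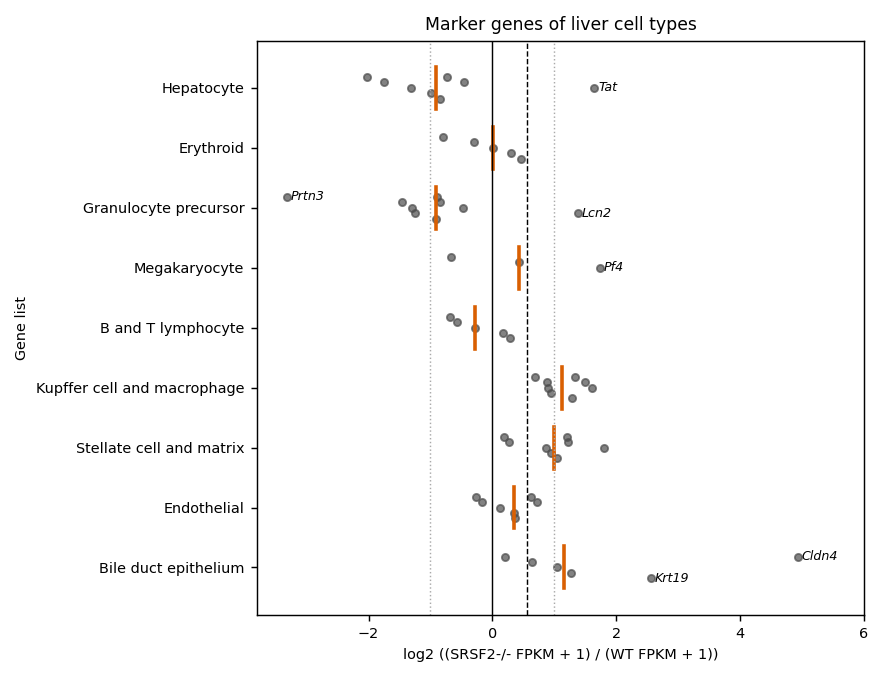
log2((SRSF2-/- FPKM + 1) / (WT FPKM + 1)) of tested marker genes of 9 liver cell types, 1 point a gene, with list medians as orange bars, the median of all genes as a dashed line and 2-fold as dotted lines. Granulocyte precursor markers other than Lcn2 lie below 0, with Prtn3 at -3.31, and the lowest erythroid marker is Alas2 at -0.79.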

How the data were processed

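Liver RNA of 1 SRSF2-/- and 1 WT library was grouped by the genotype in the labels. The submitters' processing notes name Bowtie 0.12.2 and build mm9. The sources used here do not give the counting program, the treatment of strand and of reads with several matches, or any pooling. Per the file headers, the deposited tables give a read count and an FPKM per RefSeq accession, both made by the authors. Symbols came from RefSeq (GRCm38.p6) and GENCODE tables, which named 23419 of 26449 accessions, and accessions of a gene were summed.

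The ratio scale, filter and size rule are given with the results. The FPKM worth of 1 read differed between tables by 1.012, which scaled the read ratio intervals. With 1 library per genotype no p-value was computed. The members, lists and phases were chosen with earlier results of these data known. All 40 members are named, and of each further list the genes past 2-fold (6 or fewer in each) and the most abundant; others are said to be chosen after their values were seen.

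Alternatives changed pseudocount, filter, scaling (TPM, centring, edgeR TMM, DESeq2 size factors, without the 20 most abundant genes), accession choice, size rule, phase membership, or used the read ratio. Rescaling without pancreas and muscle genes and a background of the members' level range were added after seeing the data. The computation was tested on simulated data. Python 3.11.15, numpy 2.4.6, pandas 2.3.3, scipy 1.17.1, R 4.3.3, edgeR 4.0.16 and DESeq2 1.42.0 were used.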

Additional observations from a re-analysis of the deposited data

How the results depend on the processing

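No paired analysis was possible because each genotype has 1 library. Depth limits the low members: Cdc6 had 75 reads in the knockout and 64 in the WT library. Its counting interval was wide, from 0.838 to 1.68, and held both equal FPKM and the ratio of the median gene. Medians below are log2 values relative to all genes and counts are at 2-fold unless stated. The median of all genes was 0.55 as deposited, 0.63 as TPM, 0.35 without the 20 most abundant genes, -0.04 with edgeR TMM and -0.05 with DESeq2 size factors. Of 258 summary values under the alternatives, 201 stayed within 0.1 log2 or 1.5 times of the reported one. Some of these could not move by construction, so the count overstates how stable the results are. A size rule leaves every median as it was, and centring leaves medians relative to all genes as they were. A change of phase membership can leave a class untouched.

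The count of 0 members past 2-fold became 1 higher with a pseudocount of 0.1 or the read ratio, and 6 higher at 1.5-fold. It became 2 lower after centring and 1 lower with edgeR TMM or DESeq2 size factors. The share of all genes at 1.5-fold was not taken, and the median of all genes, 0.55 as deposited, lies near that cut. The median of the members was -0.14 without a filter and -0.20 with a pseudocount of 5. The cause was not tested.

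The G1 median was 0.17 with Ccne1, Ccne2, E2f1 and Cdk2 in S phase, -0.19 with Cdc6, Cdt1 and Gmnn in G1, 0.23 without a filter, -0.12 with a pseudocount of 0.1 and -0.13 by the read ratio. The S phase median was -0.20 without a filter, -0.22 with a pseudocount of 5 and -0.51 by the read ratio. The mitotic median was -0.17 without a filter, -0.52 and -0.22 with pseudocounts of 0.1 and 5, and -0.53 by the read ratio. The gap from G1 to S phase was 0.50 with Ccne1, Ccne2, E2f1 and Cdk2 in S phase, 0.16 with Cdc6, Cdt1 and Gmnn in G1, 0.52 with a filter of 5 FPKM and 0.27 with a pseudocount of 5. The gap from G1 to mitosis was 0.59 and 0.23 under those reassignments and 0.27 with a pseudocount of 5.

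Among the other cell cycle genes, 8 higher and 2 lower became 22 higher with a pseudocount of 0.1 and by the read ratio, and 2 higher and 0 lower with a pseudocount of 5. They became 15 higher as TPM, 5 higher without the 20 most abundant genes, 1 higher and 6 lower after centring, 1 higher and 4 lower with edgeR TMM, and 1 higher and 5 lower with DESeq2 size factors. Size rules of 1.5-fold and 4-fold gave 35 higher, and 1 higher with 0 lower. Of all genes, 31.7% were higher by the read ratio, and after centring 5.67% were higher and 6.66% lower. Under the other settings the shares of all genes were not taken, so those counts have no background beside them. The medians of the further lists moved as follows. Other G1 regulators had 0.23 without a filter. CDK inhibitors had -0.13 without a filter, 0.39 with a filter of 5 FPKM and -0.18 with a pseudocount of 5. Replication genes had -0.084 without a filter and -0.12 with a pseudocount of 5. Other mitotic genes had -0.16 without a filter, -0.18 with a pseudocount of 5 and -0.43 as TPM. Checkpoint genes had 0.024 without a filter, 0.34 with a filter of 5 FPKM, 0.0028 with a pseudocount of 0.1, 0.012 by the read ratio, -0.022 with edgeR TMM and -0.018 with DESeq2 size factors. The cause of these moves was not tested.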
